A study of Mus musculus with 6 samples.

Results

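Heat shock chaperones were examined in mouse blood neutrophils that had been isolated by flow cytometric sorting. The group consisted of 10 named genes, Hspa8, Hspa1a, Hspa1b, Hspa5, Hsp90aa1, Hsp90ab1, Hsph1, Dnajb1, Dnaja1 and Hspe1, taken by exact symbol, and all 10 were among the 47561 features listed in each library. The study compared 3 samples from mice given AVP, an abbreviation the labels do not expand, with 3 negative control samples, and the blood was taken after an administration of 30 days. The labels give no strain, sex, age or dose, and they do not state whether each sample is its own animal. The p-values therefore describe the spread among these libraries, which may be technical. Values were fragments per kilobase of transcript, scaled to library size (FPKM), a level per length that allows genes to be compared with each other.

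Chaperones bind unfolded stretches of other proteins and help them to fold, to assemble or to be degraded. HSP70 proteins work in a cycle driven by ATP, in which J proteins (the HSP40 family) deliver the client and start hydrolysis, and HSP110 proteins exchange the nucleotide. HSP90 proteins act later, on nearly folded clients such as kinases and steroid receptors. Many of these genes are induced by heat and other protein-damaging stress through the transcription factor HSF1, which binds heat shock elements made of alternating repeats of a short pentamer, while the chaperone of the endoplasmic reticulum (ER) is induced by the unfolded protein response. Neutrophils are short-lived blood cells with little RNA, and they carry these chaperones as most cells do.

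The libraries listed 10628 to 12195 features above 0, and their depth, estimated from the value that a single fragment gives in short pseudogenes, was about 14199000 to 16845000 fragments. Of 15 neutrophil markers, 12 reached 1 FPKM in every library, and the calprotectin gene S100a8 stood at 95287 to 121812 FPKM. Markers of other blood cells were present as well. The 10 B cell markers summed to 2115, 6893 and 5152 FPKM in AVP libraries 1 to 3 and to 7543, 8962 and 6602 FPKM in control libraries 1 to 3. The 8 basophil markers summed to 338 FPKM in AVP library 1 and 31.1 FPKM in control library 2, and were at or near 0 in the other libraries. The 11 T and NK cell markers summed to 159 FPKM in AVP library 3 and to 3.61 to 17 FPKM elsewhere, with Cd3e, Cd4 and Cd8a listed at 0 throughout. Monocyte markers (10 genes) were lowest in AVP library 3, at 213 FPKM against 511 to 1244 FPKM elsewhere, and red cell markers (10 genes) took 29.2% of the total FPKM in AVP library 1 and 13.6% to 19.0% elsewhere. In bulk samples, fewer cells of a type and less RNA per cell cannot be told apart. Of 2719 features above 30 FPKM in some library, 329 were listed at 0 in another, so a listed 0 is read here only as such. The part of the other cell types in the chaperone values was not tested.

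Across the family, 6 of the 10 chaperone genes stood higher in every AVP library than in any control library, and none lay wholly below. These were the cytosolic HSP70 genes Hspa8 and Hspa1a, the ER HSP70 gene Hspa5, both cytosolic HSP90 genes and the J protein gene Dnajb1. Among all 8523 genes tested (a level of 1 FPKM or more in 3 or more libraries), 6.39% were higher without overlap and 7.63% were lower without overlap. Hspa1a passed that filter only through its AVP libraries, so it had to stand higher there, which leaves 5 genes apart from it. By limma on log2(FPKM + 1), 0 of the 8 chaperone genes tested passed an adjusted p of 0.05 over all genes, where the share called over all genes was 0%. Their adjusted p ranged from 0.29 to 0.999. At an unadjusted p under 0.05, 6 chaperone genes were higher, Hspa1a among them, and none lower, where 725 genes (8.51% of those tested) passed in either direction, 406 (4.76%) higher and 319 (3.74%) lower after AVP. Fitted without a filter, 9 of the 10 chaperone genes had a log2 fold change above 0, with a median of 1.00, against 49.1% of 18012 features and a median of -0.00329. With the filter, 47.9% of the genes tested were fitted above 0. The 10 genes together summed to 646, 718 and 821 FPKM in the AVP libraries and to 349, 359 and 473 FPKM in the control libraries, which was 0.0779% to 0.103% of the total FPKM after AVP and 0.0441% to 0.0596% in controls.

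**Figure D1:**
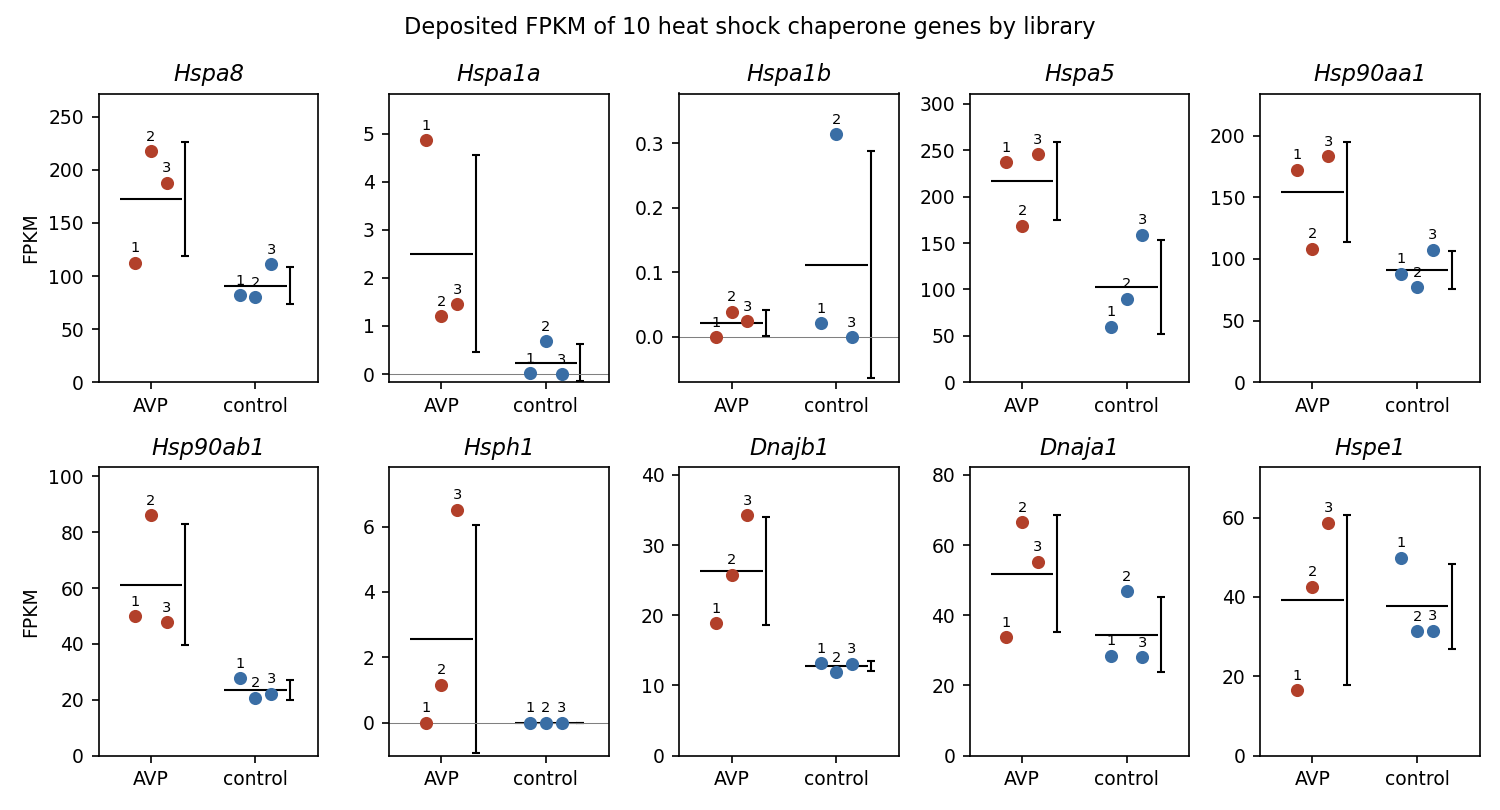
Deposited FPKM of the 10 chaperone genes, with each library as a point numbered by its replicate (AVP left, control right), group means as horizontal lines and the SD (n = 3) as a bar beside them. Hsp90ab1 and Dnajb1 showed clear gaps between the groups, while the lowest AVP library exceeded the highest control library by 1.17 FPKM for Hspa8 and by 0.618 FPKM for Hsp90aa1.

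The RefSeq promoter table of GRCm38.p6 held 7 of the 10 genes, and those of Hspa8, Hsp90aa1 and Hsp90ab1 were not in it. The 250 bases before the outermost transcription start are shown for 5 genes whose windows held a match, because they carry a heat shock element or an ER stress element, from 5′ to 3′ on the strand of the gene. Capitals mark matches to the heat shock element, searched as GAANNTTC and TTCNNGAA, which read the same on both strands and may overlap each other, and in Hspa5 to the ER stress element, searched on both strands as CCAAT and CCACG with 9 bases of any kind between them; a match therefore overlaps a CCAAT box. The windows are chr17:34972157-34972406 (minus strand) for Hspa1a, chr17:34959239-34959488 (minus strand) for Hspa1b, chr4:40722218-40722467 (plus strand) for Dnaja1, chr1:55087898-55088147 (plus strand) for Hspe1 and chr2:34771840-34772089 (plus strand) for Hspa5.
Hspa1a: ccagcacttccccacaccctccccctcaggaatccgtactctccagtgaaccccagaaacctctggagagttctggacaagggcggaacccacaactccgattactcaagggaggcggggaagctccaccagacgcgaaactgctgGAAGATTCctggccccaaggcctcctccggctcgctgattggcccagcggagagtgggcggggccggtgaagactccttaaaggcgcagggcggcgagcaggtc
Hspa1b: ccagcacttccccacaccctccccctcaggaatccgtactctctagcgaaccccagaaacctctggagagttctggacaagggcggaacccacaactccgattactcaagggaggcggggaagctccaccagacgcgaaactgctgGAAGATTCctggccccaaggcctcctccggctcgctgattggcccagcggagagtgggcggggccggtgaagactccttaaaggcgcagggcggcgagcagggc
Dnaja1: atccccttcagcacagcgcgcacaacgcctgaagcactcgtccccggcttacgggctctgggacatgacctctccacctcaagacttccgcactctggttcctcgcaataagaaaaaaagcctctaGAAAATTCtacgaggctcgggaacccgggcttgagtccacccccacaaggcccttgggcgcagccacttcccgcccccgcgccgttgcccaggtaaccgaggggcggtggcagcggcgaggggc
Hspe1: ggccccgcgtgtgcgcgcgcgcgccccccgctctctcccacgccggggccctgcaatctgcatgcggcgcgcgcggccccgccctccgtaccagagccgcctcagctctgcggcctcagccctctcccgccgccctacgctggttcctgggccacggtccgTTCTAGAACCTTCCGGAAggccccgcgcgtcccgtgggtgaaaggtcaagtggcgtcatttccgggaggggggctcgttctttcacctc
Hspa5: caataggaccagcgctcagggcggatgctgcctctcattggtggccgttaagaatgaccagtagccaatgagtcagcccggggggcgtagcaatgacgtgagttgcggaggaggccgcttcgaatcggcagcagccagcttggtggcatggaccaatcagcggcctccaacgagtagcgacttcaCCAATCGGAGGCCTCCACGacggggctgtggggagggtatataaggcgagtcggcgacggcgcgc

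A heat shock element was found in 5 of the 7 genes, Hspa1a, Hspa1b, Dnaja1, Hspe1 and Hsph1, against 12.8% of 32817 promoter windows of the same length. The outermost start of Hsph1 was not listed, so its window precedes a start inside the annotated gene, and its sequence is not shown. Hspa1a and Hspa1b were identical at 247 of 250 bases, so they are not separate instances. Hspe1 held a run of 4 alternating units, TTC, GAA, TTC and GAA with NN between neighbours, which contains 2 overlapping matches to a 3-unit element, and a 3-unit element was present on either strand in 0.466% of windows. Hspa5 held the ER stress element, present in 0.113%. Dnajb1 had neither of these motifs in the window before its outermost start. Dnajb1 and Hsph1 had 2 listed starts each and Dnaja1 had 3, and the windows of their other starts were not searched. Of the genes with a heat shock element in the window, Hspa1a was higher in every AVP library and Dnaja1, Hspe1, Hspa1b and Hsph1 had overlapping groups. Hspa5 and Dnajb1, with no match to the heat shock element in the window, were higher in every AVP library. Hspa8, Hsp90aa1 and Hsp90ab1, also higher in every AVP library, had no promoter to search. Hspa1a passed the filter only through its AVP libraries, and Hspa1b and Hsph1 did not pass it. Any link between these motifs and the chaperone levels was not tested.

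**Figure D2:**
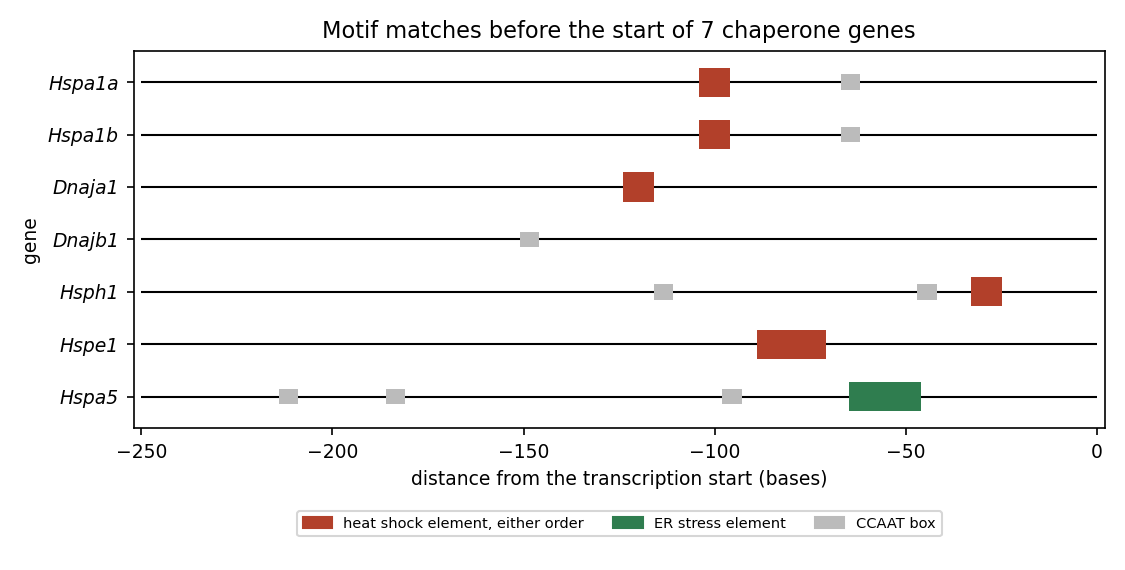
Positions of motif matches in the 250 bases before the transcription start of 7 chaperone genes, with distance from the start in bases on the horizontal axis. The matches lay between 26 and 124 bases before the start for the heat shock element and between 47 and 65 bases before it for the ER stress element of Hspa5. The match reaching 26 bases before the start was that of Hsph1, whose window precedes a start inside the annotated gene. CCAAT boxes, found in 5 of the 7 genes and in 33.8% of all windows, are drawn in grey.

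In both groups the most abundant of the 10 was Hspa5, followed by Hspa8 and Hsp90aa1, and the libraries of these 3 genes overlapped within each group, so their order was not settled. Hspa8, Hspa5 and Hsp90aa1 had higher mean levels than 94.1%, 94.8% and 93.8% of the genes tested. Hsp90ab1, Dnaja1, Hspe1 and Dnajb1 formed a middle tier, with group means of 26.3 to 61.2 FPKM after AVP and 12.7 to 37.6 FPKM in controls. Hspa1a, Hspa1b and Hsph1 had group means below 3 FPKM in both groups.

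Hspa8 encodes the constitutive cytosolic HSP70, HSC70, which folds new proteins and strips clathrin from vesicles (chromosome 9, 40801276 to 40805202, GRCm38, the assembly of mm10). It was at 113, 217 and 188 FPKM in AVP libraries 1 to 3, against 81.7, 79.8 and 111 FPKM in control libraries 1 to 3. AVP library 1 stood next to control library 3, while AVP libraries 2 and 3 lay well above all controls. The group means were 173 ± 54.0 FPKM after AVP and 90.9 ± 17.7 FPKM in controls (SD, n = 3 each), a log2 fold change of 0.97, with an SE of 0.29 (95% confidence interval 0.30 to 1.63, adjusted p = 0.351 by limma). Its spread between replicates, 0.33 on the log2 scale, was below the median of 0.58 for the 3579 tested genes with a mean of at least 10 FPKM. That median was not matched to the high level of Hspa8. Among the tested chaperone genes this spread ranged from 0.25 (Dnajb1) to 0.68 (Hspa1a).

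Processed pseudogenes carry near-identical copies of Hspa8, and 3 of them reached 1 FPKM. The most abundant, Gm15459, aligned to the Hspa8 transcript over 1941 bases with 99.74% identity and was at 14.4, 34.2 and 26.9 FPKM in AVP libraries 1 to 3, against 11.7, 10.1 and 15.8 FPKM in control libraries 1 to 3. The 5 listed copies together came to 21.8% to 23.2% of the Hspa8 level in the AVP libraries and 24.1% to 24.8% in the control libraries. That share was nearly the same in all 6 libraries, and which locus the fragments came from cannot be read from these values. Hsp90aa1 had 2 such copies, Gm12346 and Gm5844, at 18.2% to 19.7% of its level after AVP and 19.8% to 25.4% in controls. Summed with the copies that reached 1 FPKM, Hspa8 (137, 267 and 229 FPKM after AVP, 102, 99.4 and 138 FPKM in controls) and Hsp90aa1 (206, 129 and 217 FPKM after AVP, 105, 96.6 and 130 FPKM in controls) no longer separated the groups on the deposited scale, and 4 of the 10 genes did. The log2 fold changes on the summed values were 0.94 (SE 0.28) for Hspa8 and 0.79 (SE 0.31) for Hsp90aa1. After scaling of the libraries, the summed values separated the groups for 6 genes. These counts include Hspa1a, which passed the filter only through its AVP libraries.

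Hspa1a and Hspa1b encode the stress-inducible HSP70 and are the classical targets of HSF1. They lie close together on chromosome 17 (34969359 to 34972156 and 34956429 to 34959238) and share 99.23% of 2201 aligned transcript bases, and how their shared fragments were divided is uncertain. Hspa1a was at 4.86, 1.20 and 1.45 FPKM in AVP libraries 1 to 3, against 0.0216, 0.683 and 0 FPKM in control libraries 1 to 3. Taken through the gene length and the estimated depth, these levels are worth about 202, 55 and 68 fragments after AVP and about 1, 29 and 0 fragments in controls. The AVP libraries all stood above the controls, and AVP library 1, which also held the basophil transcripts and the most globin, was far above the other two. The log2 fold change was 1.44 (SE 0.60, adjusted p = 0.564 by limma). Hspa1b was at 0, 0.0394 and 0.0245 FPKM after AVP, against 0.0215, 0.315 and 0 FPKM in controls, and was highest in control library 2. With both copies summed, the log2 fold change was 1.37 (SE 0.62). In the libraries where a ratio could be formed, Hspa8 exceeded the sum of both by 23.1-fold to 175-fold after AVP and by 80-fold to 1896-fold in controls.

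Hspa5 encodes BiP, the HSP70 of the ER lumen and the sensor partner of the unfolded protein response (chromosome 2, 34772090 to 34776529). It was at 237, 169 and 246 FPKM in AVP libraries 1 to 3, against 59.9, 90.1 and 159 FPKM in control libraries 1 to 3. AVP library 2 and control library 3 came closest, 9.86 FPKM apart, and the controls were widely spread. The means were 217 ± 42.2 FPKM after AVP and 103 ± 50.8 FPKM in controls (SD, n = 3 each), a log2 fold change of 1.25, with an SE of 0.39 (95% confidence interval 0.35 to 2.15, adjusted p = 0.374 by limma). Relative to Hspa8, Hspa5 was at 2.11, 0.777 and 1.31 after AVP and at 0.733, 1.13 and 1.43 in controls, so the ratio of the ER to the cytosolic gene overlapped between the groups.

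Hsph1 encodes HSP105, an HSP110 family member that serves HSP70 as nucleotide exchange factor (chromosome 5, 149616843 to 149636498). It was at 0, 1.17 and 6.52 FPKM after AVP and was listed at 0 in all 3 control libraries. It did not pass the filter and was not tested, and AVP library 3, the library with T and NK cell transcripts, held most of its signal.

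Hsp90aa1 and Hsp90ab1 encode the inducible and the constitutive cytosolic HSP90 (chromosome 12, 110691036 to 110696395, and chromosome 17, 45567778 to 45573261). Hsp90ab1 was at 49.9, 86.1 and 47.7 FPKM in AVP libraries 1 to 3, against 27.6, 20.7 and 22.1 FPKM in control libraries 1 to 3. The groups lay 20.0 FPKM apart, the widest gap among the 10 genes. The means were 61.2 ± 21.6 FPKM after AVP and 23.5 ± 3.66 FPKM in controls (SD, n = 3 each), a log2 fold change of 1.39, with an SE of 0.35 (95% confidence interval 0.59 to 2.18, adjusted p = 0.29 by limma), and its p ranked 110 among the 8523 genes. Hsp90aa1 was at 172, 108 and 183 FPKM after AVP, against 87.9, 77.0 and 108 FPKM in controls. AVP library 2 was level with control library 3, and the log2 fold change was 0.82 (SE 0.31, adjusted p = 0.503 by limma). The inducible gene exceeded the constitutive gene 3.45-fold, 1.26-fold and 3.85-fold in AVP libraries 1 to 3 and 3.18-fold, 3.72-fold and 4.86-fold in control libraries 1 to 3, with AVP library 2 alone near equal levels.

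Dnajb1 and Dnaja1 encode J proteins of the cytosol, of the B and A class, that stimulate HSP70. Dnajb1 (chromosome 8, 83608175 to 83612653) was at 18.8, 25.8 and 34.3 FPKM in AVP libraries 1 to 3, against 13.2, 11.9 and 13.1 FPKM in control libraries 1 to 3. The controls were tight, at 12.7 ± 0.704 FPKM, and the AVP libraries spread upward, at 26.3 ± 7.73 FPKM (SD, n = 3 each), a log2 fold change of 1.04, with an SE of 0.39 (adjusted p = 0.501 by limma). Dnaja1 (chromosome 4, 40722468 to 40734965) was at 33.8, 66.6 and 55.3 FPKM after AVP, against 28.4, 46.9 and 28.1 FPKM in controls. Its groups overlapped, with AVP library 1 below control library 2, and the log2 fold change was 0.65 (SE 0.37, 95% confidence interval -0.21 to 1.50, adjusted p = 0.729 by limma). Its pseudogene Gm15542, identical over 99.41% of 1194 bases, was at 24.8, 19.8 and 23.9 FPKM after AVP, and the controls were at 14.0, 15.5 and 6.88 FPKM. The 3 listed copies of Dnaja1 came to 35.1% to 76.3% of its level in the AVP libraries and 26.6% to 53.0% in the control libraries, and summed with the 2 that reached 1 FPKM its log2 fold change was 0.77 (SE 0.33), with the groups still overlapping.

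Hspe1 encodes HSP10, the lid of the mitochondrial HSP60 chaperonin (chromosome 1, 55088148 to 55091317). It was at 16.5, 42.6 and 58.7 FPKM in AVP libraries 1 to 3, against 49.9, 31.4 and 31.5 FPKM in control libraries 1 to 3. The AVP libraries bracketed the controls, and the log2 fold change was 0.00375 (SE 0.47, 95% confidence interval -1.09 to 1.10, adjusted p = 0.999 by limma), a sign that turned on the deposited scale (-0.08). The interval is wide on both sides of 0, so the value does not show that Hspe1 was alike in both groups.

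**Figure D3:**
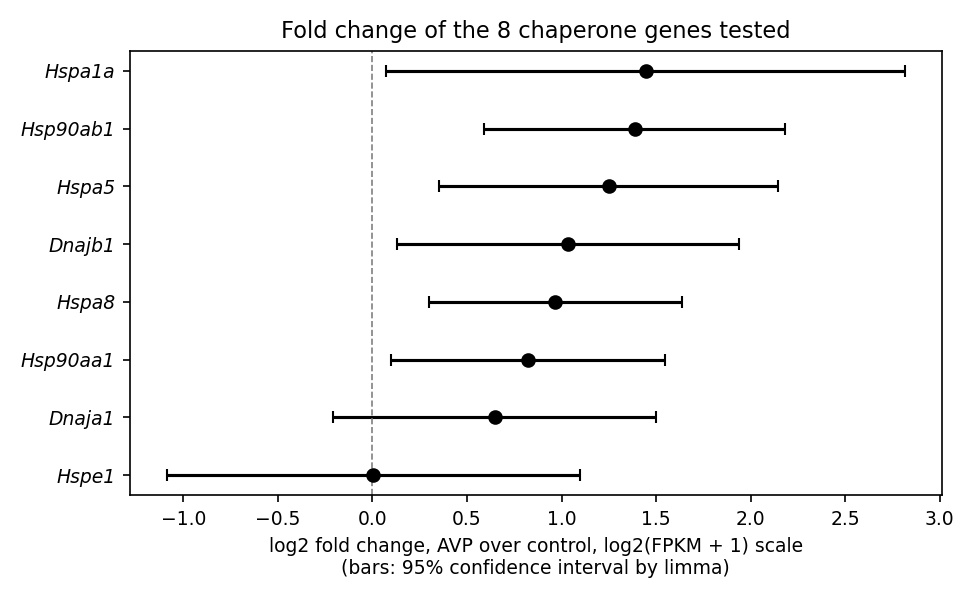
Log2 fold changes of AVP over control for the 8 chaperone genes that passed the filter, on the log2(FPKM + 1) scale, with 95% confidence intervals from limma. The intervals of 6 genes lay above 0, those of Dnaja1 and Hspe1 included 0, and none of the 8 passed an adjusted p of 0.05 over all genes. The 6 include Hspa1a, which passed the filter only through its AVP libraries and so had to stand higher.

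Which library was highest differed among the chaperone genes. On the deposited values, AVP library 1 was the highest library for Hspa1a and the lowest AVP library for Hspa8, Dnaja1, Dnajb1 and Hspe1 among the 8 tested genes. AVP library 2 was the highest for Hspa8, Hsp90ab1 and Dnaja1, and AVP library 3 the highest for Hspa5, Hsp90aa1, Hsph1, Dnajb1 and Hspe1. After scaling, AVP library 1 was the highest for Hspa5 and Hsp90aa1, just above AVP library 3. Among the controls, library 3 was the highest for Hspa8, Hspa5 and Hsp90aa1. By the exact permutation test, two-sided, p was 0.1 for each of the 6 separated genes, which is the lowest value possible with 3 libraries a group, and Dnaja1 gave p = 0.2. Any gene whose groups do not overlap gives that lowest value, so it restates the separation and adds no further test.

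**Figure D4:**
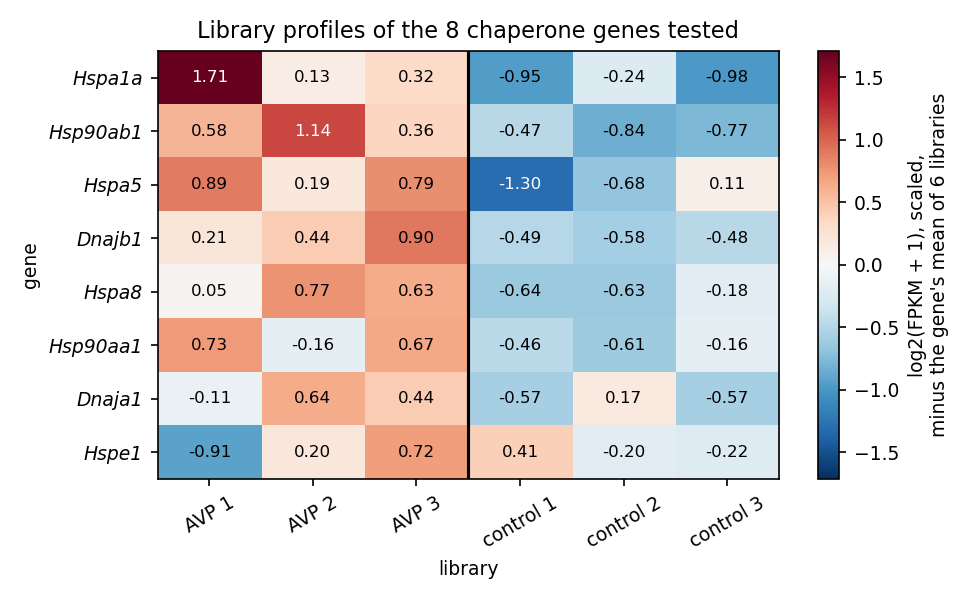
Scaled log2(FPKM + 1) of the 8 tested chaperone genes in each library (AVP libraries left of the line, control libraries right), as the difference from the mean of the gene over 6 libraries. Red is above and blue below that mean, and the strongest AVP library varied from gene to gene.

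The wider chaperone network was described from lists of related genes. Of 137 other genes in 9 lists, 90 were tested, 0 passed over all genes, 38 had a fitted fold change above 0 and 52 below, and the median was -0.15, against -0.04 over all genes tested. Of the 90, 6 were higher without overlap, 1 of which passed the filter only through its AVP libraries, and 3 were lower, near the shares of 6.39% and 7.63% over all genes tested.

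Among 20 tested co-chaperones, which steer HSP70 and HSP90, 9 lay above 0 and 11 below (median -0.03). Of the 20, 4 were higher without overlap, against 6.39% of all genes tested. The 4 were Ahsa1, Ahsa2, Fkbp4 and Unc45a, of which Ahsa1 and Unc45a are named after their values were seen. Ahsa1, the activator of the HSP90 ATPase, was at 18.5, 38.3 and 33.2 FPKM after AVP, against 10.7, 17.9 and 15.5 FPKM in controls (log2 fold change 1.03, SE 0.42). Its relative Ahsa2 was at 1.58, 3.11 and 6.33 FPKM after AVP, against 0, 0.0156 and 0 FPKM in controls (2.11, SE 0.55, adjusted p = 0.298 by limma). Ahsa2 passed the filter only through its AVP libraries, so it had to be higher, which leaves 3 genes apart from it. Fkbp4, the immunophilin of steroid receptor complexes, was at 4.88, 18.1 and 20.3 FPKM after AVP, against 3.96, 0.769 and 2.90 FPKM in controls (2.11, SE 0.72, adjusted p = 0.427 by limma). Unc45a, a myosin chaperone that binds HSP90, was at 4.36, 6.21 and 12.6 FPKM after AVP, against 2.25, 0 and 2.25 FPKM in controls. The more abundant co-chaperones Ptges3 (p23 of the HSP90 cycle, log2 fold change -0.18, SE 0.27) and St13 (Hip, which stabilises HSP70, -0.29, SE 0.49) had overlapping groups.

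Other HSP70 and HSP110 genes had 4 of 4 tested above 0 (median 0.51), none apart between the groups. Hspa14, a ribosome-associated HSP70, averaged 23.4 FPKM after AVP and 17.1 FPKM in controls. Hspa9, the mitochondrial HSP70, was at 0, 16.2 and 6.40 FPKM after AVP, and the controls were at 0.346, 19.9 and 0.652 FPKM, too scattered to rank the groups. Hspa13, an HSP70 of the microsomal compartment, had a log2 fold change of 0.96 (SE 0.92). Of 27 other J protein genes, 8 lay above 0 and 19 below (median -0.35), and 2 were lower without overlap, a share near the 7.63% of all genes tested. They were Sec63, which works with BiP at the ER translocon (-1.77, SE 0.68, adjusted p = 0.503 by limma), and Dnajc13, an endosomal J protein named after its values were seen (-0.56). Dnajc8, the second most abundant of them, was at 59.3 FPKM after AVP and 63.0 FPKM in controls, and Dnajc4 had a log2 fold change of -2.44 (SE 0.96). Hsp90b1, the HSP90 of the ER, was at 12.5, 47.4 and 26.1 FPKM after AVP, and the controls were at 13.9, 23.2 and 34.2 FPKM.

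Of 24 tested ER chaperone and ER stress genes, 12 lay above 0 and 12 below (median 0.03). Without overlap, 2 were higher and 1 lower, against 6.39% and 7.63% of all genes tested. Dnajb9, the J protein that partners BiP, was at 158, 56.5 and 111 FPKM after AVP, against 52.5, 46.8 and 84.8 FPKM in controls (0.82, SE 0.46, adjusted p = 0.71 by limma), with overlapping groups. Atf4, the transcription factor of the integrated stress response, was at 120 FPKM after AVP and 115 FPKM in controls on average. Ppp1r15a, which encodes the GADD34 subunit that reverses eIF2α phosphorylation, was at 35.1, 59.2 and 34.0 FPKM after AVP, against 28.3, 5.63 and 17.4 FPKM in controls (1.55, SE 0.57). Canx, the lectin chaperone calnexin, was lower without overlap, at 6.63, 21.5 and 2.69 FPKM after AVP, against 29.2, 39.8 and 31.1 FPKM in controls (-1.91, SE 0.65, adjusted p = 0.427 by limma).

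The chaperonins that fold actin and tubulin, with HSP60, had 3 of 9 above 0 (median -0.59), with Cct4 at -0.83 (SE 0.72), Cct5 at -0.05 (SE 0.49), Cct3 at 1.42 (SE 0.78) and Cct7 at -1.19 (SE 0.80). The mitochondrial proteostasis list had 3 of 7 above 0, of which 1 was Hspa14, described above and not a mitochondrial protein, with Clpp at -0.60 (SE 0.95), Clpx at -0.91 (SE 0.76) and Grpel1, the nucleotide exchange factor of mitochondrial HSP70, at -2.28 (SE 1.01, adjusted p = 0.598 by limma). Of the 10 genes in the list named for small heat shock proteins, 8 were listed at 0 in all libraries, Hspb1 and Cryab among them. The tested genes of that list were Hspb11 at -1.84 (SE 1.20) and Hspb6 at -1.72 (SE 1.04). Of the 5 tested HSF genes and regulators, Hsbp1, which binds HSF1, was at 118 FPKM after AVP and 148 FPKM in controls and Crebbp, a coactivator, at 11.8 FPKM after AVP and 8.42 FPKM in controls. Hsf1 itself, the factor of the list, named outside the rule and after its values were seen, was at 0, 5.30 and 1.11 FPKM after AVP, against 11.5, 0 and 3.64 FPKM in controls.

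Immediate early genes are transcribed quickly after a cell is stimulated. Of 28 tested, 0 passed the threshold over all genes, each of the 28 was fitted above 0 (median 1.01, against -0.04 over all genes tested) and 21 were higher without overlap, against 6.39% of all genes tested. The 21 include Egr3, named after its values were seen, which passed the filter only through its AVP libraries and so had to be higher, and 20 remain apart from it. Ppp1r15a is also among the 21 and is counted in the ER list as well, so these lists are not separate. Nfkbia, the inhibitor of NF-kB, was at 1018, 1074 and 1182 FPKM after AVP, against 140, 153 and 382 FPKM in controls, and Ier3 had a log2 fold change of 1.64, with an SE of 0.22 (adjusted p = 0.0644 by limma). Dusp1, a MAP kinase phosphatase, was 0.90 higher on the log2 scale (SE 0.20), and Zfp36, an mRNA decay factor, 1.05 higher (SE 0.27). The list was chosen with earlier results known, and any link between it and the chaperone values was not tested. Without AVP library 1, which held most of the basophil transcripts, 6 of the 7 chaperone genes that then passed the filter were higher without overlap, against 11.4% of the 7999 genes that passed it. Without AVP library 3, which held most of the T and NK cell transcripts, 5 of 7 were, against 11.4% of 7971 genes. Genes apart with all libraries stay apart when any library is left out, so these counts were largely fixed in advance. The part of basophils, T and NK cells or other cell types in the chaperone values was not tested.

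**Figure D5:**
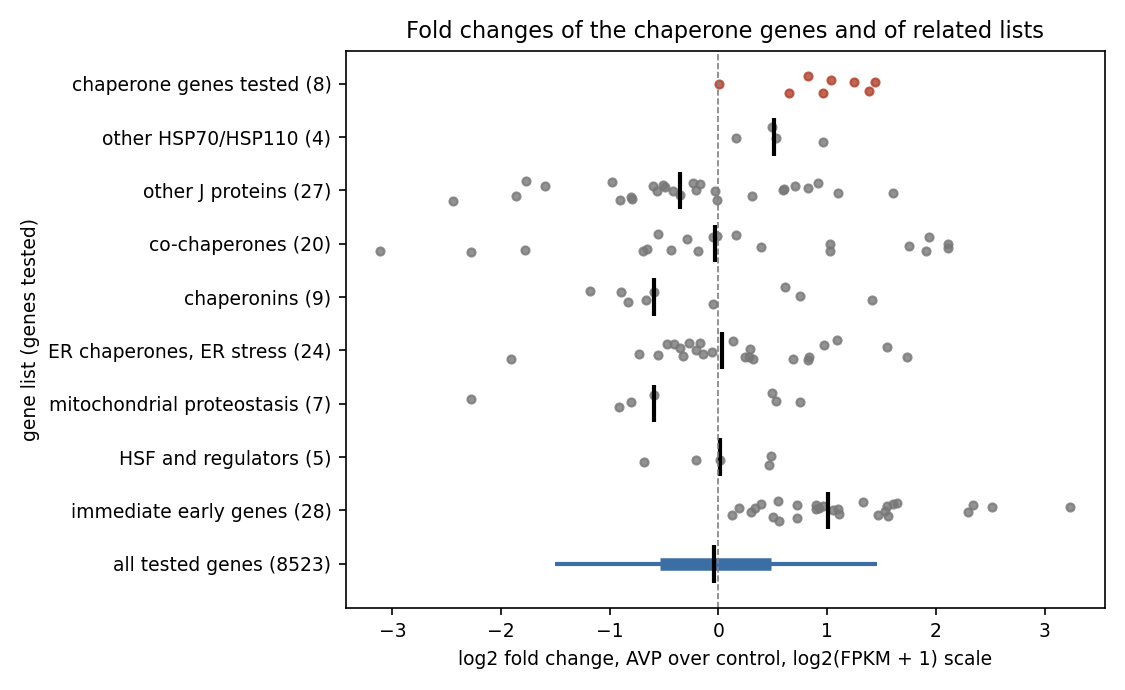
Log2 fold changes of AVP over control for each tested gene of the chaperone family (top) and of the related lists, with list medians as black bars, and for all 8523 tested genes the median, the middle 50% (thick line) and the middle 90% (thin line). The chaperone genes and the immediate early genes lay at or above 0, while most of the other chaperone lists spread to both sides.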

How the data were processed

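Total RNA of sorted blood neutrophils was sequenced as paired reads, per the labels' protocols. Per the submitters' processing notes, the authors used bcl2fastq 2.19, cutadapt 1.16.5, featureCounts 1.6.4, DESeq2 2.11.40.6, HISAT2 2.1 and mouse build mm10, with roles not given in the sources used here. FPKM is the unit in which the authors' deposited values are read, a unit inferred from the values. As they are not counts, limma 3.58.1 (R 4.3.3) was used. Scaling used the trimmed mean of log ratios, cutting 30% of the ratios and 5% of the levels from either end; the filter was 1 FPKM or more in 3 or more libraries; log2(FPKM + 1) was fitted with an intensity trend, and p-values were adjusted by Benjamini-Hochberg over all genes at 0.05. Fold changes on this scale understate those of low genes, and printed FPKM are before scaling. Near-identical copies were sought with blastn 2.17.0 (at least 95% identity over 300 bases) in GENCODE M21 transcripts. Gene positions and promoters came from RefSeq GRCm38.p6. The procedure was tested on simulated data. Other tables and plots used Python 3.11.15, pandas 2.3.3, numpy 2.4.6 and matplotlib 3.10.9.

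The chaperone genes and lists were chosen with earlier results of these data known. Genes named from a list were its 2 most abundant and the 2 with the smallest p; Hsf1, Ahsa1, Unc45a, Dnajc13, Egr3, Hspb1 and Cryab are named outside this rule. No pairing of the libraries by replicate number was seen in the values, which cannot show that the samples were unpaired. The heat shock element was chosen with the lists, and its window was narrowed to the 250 bases before the start; the ER stress element, the CCAAT box and the search for copies were chosen after seeing the data. The alternatives were other scalings, filters, pseudocounts and moderation, removal of globin, immunoglobulin and mitochondrial genes, a replicate block and leaving out each library.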

Additional observations from a re-analysis of the deposited data

How the results depend on the processing

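Over all genes, the count past an adjusted p of 0.05 was 0, and it became 11 with a 10 FPKM filter, 7 with a pseudocount of 5, 1 without the intensity trend, 13 at a threshold of 0.1, and 0 to 4 with each library left out (4 without control replicate 3); the cause was not tested. None of the chaperone genes or of the 90 network genes passed under any of these settings. Across 128 fits of single chaperone genes under alternatives, all but 5 kept their direction and side of the threshold. The 5 were of Hspe1: -0.0788 on the deposited scale, and -0.35 to -0.0907 without AVP replicate 2 or 3 or control replicate 2 or 3. Over each library left out in turn, Hspe1 ranged from -0.35 to 0.46. Hspa5 ranged from 0.91 to 1.61, Hsp90ab1 from 1.17 to 1.55, and Hspa1a from 0.52 with a pseudocount of 5 to 3.40 with one of 0.1. Hspa1a could not be fitted without an AVP library, since it then failed the filter. The count of chaperone genes higher without overlap was 6 to 8 with each library left out, where 9.79% to 11.4% of all tested genes were. Genes apart with all libraries stay apart when any library is removed, so this count could not fall below 6. Among genes passing the filter in that refit it was 5 to 7, against 10.1% to 11.7% of all such genes, and it could fall only through the filter. After scaling it was 6, against 7.49% (trimmed mean) and 7.37% (median ratio). With all libraries on the deposited scale the share was 6.39%. Summed with pseudogene copies on the deposited scale, the count was 4, Hspa1a among them. These alternatives were chosen after seeing the data. With a replicate block, 0 genes passed. The deviations of same-numbered libraries correlated at 0.0205, -0.0129 and -0.0423. No pairing by number was seen in these values, which cannot show that the samples were unpaired. Hspa1b rested on 0 to 13 estimated fragments, which limits what can be read from it, and how fragments shared with Hspa1a were divided is uncertain.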
